A study of Homo sapiens with 6 samples.

Results

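The genes described here encode the ligands, receptors, secreted antagonists and core transducers of the Wnt pathway, measured by RNA-seq in LN229 glioblastoma cells with and without PARP3. Members were taken by gene name from the deposited table of 33841 genes: every protein-coding WNT, Frizzled (FZD), SFRP and DKK gene with a number, LRP5 and LRP6, ROR1 and ROR2, the beta-catenin and AXIN genes, the TCF/LEF transcription factors, and the planar polarity genes ANKRD6, PRICKLE1, PRICKLE2, VANGL1 and VANGL2. This gave 45 members, of which 34 had enough counts to be tested. Every gene of the table had at least 1 count in the libraries, and family members that it does not list were not analysed here.

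Wnt proteins are secreted, lipid-modified ligands that bind Frizzled receptors at the cell surface. With the LRP5 or LRP6 co-receptor they start the canonical branch, in which beta-catenin escapes the AXIN destruction complex and works with TCF/LEF factors in the nucleus. With ROR receptors and the VANGL, PRICKLE and CELSR proteins they act in the planar polarity branch, which orients cells and guides their movement without beta-catenin. SFRP proteins bind the ligands and most DKK proteins bind the LRP co-receptors, and both classes are secreted. In glioma, noncanonical ligands such as WNT5A are known for their part in invasion.

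LN229 is an established human glioblastoma cell line. The comparison set 3 libraries of the parental line (WT) against 3 libraries of PARP3-/- cells, in which guides for the Cas9 D10A nickase had disrupted PARP3, an enzyme of the DNA strand break response. The sources differ on which exons the disruption spans. The labels call the libraries biological replicates. PARP3-/- lines were grown from single cells and the sequenced clone is not named in the sources used here, so the genotype and the clone cannot be told apart.

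Library totals ranged from 29692065 to 46010369 counts. PARP3 itself had 1273, 942 and 995 counts in WT and 574, 1004 and 736 in PARP3-/- cells, with overlapping groups and a log2 fold change of -0.42 (SE 0.18, adjusted p = 0.307); with the replicate number as a block the edgeR adjusted p was 0.0469. A disrupted gene can still be transcribed, so these counts do not check the labels. Of the glial and glioma markers, VIM and NES were abundant whereas GFAP did not exceed 17 counts and SOX9 did not exceed 1 count in any library. The summed level of the 10 listed glial markers was 6226 to 6609 CPM (counts per 1000000 counts, with library totals scaled by TMM factors) in WT and 5925 to 6878 CPM in PARP3-/- cells. Of 4 epithelial markers, KRT8 and KRT18 gave nearly all of a sum of 148 to 171 CPM in WT and 107 to 126 CPM in PARP3-/- cells, with EPCAM and CDH1 at no more than 3 counts. The 6 fibroblast and mural markers summed to 50.6 to 72.6 CPM in WT and 72.2 to 136 CPM in PARP3-/- cells. Within these lists COL1A2 rose 2.48-fold (edgeR adjusted p = 0.0465), while DCN fell 2.08-fold (0.00919), the glial marker S100B 2.09-fold (0.0256) and KRT8 1.67-fold (0.0194). The part of these markers in the results was not tested. Both libraries numbered 1 differed most from the others of their genotype. They deviated together, while the libraries numbered 2 and 3 were not matched by number. Counts of calls are therefore also given with the replicate number as a block and without the libraries numbered 1.

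Among the 34 tested members, 7 fell in PARP3-/- cells and none rose at an adjusted p under 0.05 (edgeR quasi-likelihood test, adjusted over all 17144 tested genes). The genes that fell were ANKRD6, VANGL2 and PRICKLE2 of the planar polarity branch, the receptors FZD8 and FZD1, the ligand WNT10B and the transcription factor TCF7L1. Over all tested genes, 3.33% were called lower and 1.36% higher. Of those 7, ANKRD6, VANGL2, WNT10B and TCF7L1 reached the count filter through the WT libraries and would not have reached it through the PARP3-/- libraries; of the other 30 tested members, 3 were called lower. At an unadjusted p under 0.05 in the same fit, 12 members were lower and 2, FZD9 and DKK3, were higher. Of all 17144 tested genes, 2788 passed that limit in either direction. The median log2 fold change of the 34 was -0.052, beside -0.0062 over all tested genes.

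With the replicate block, 13 members were called lower and 6 higher, where 12.5% and 11.8% of all tested genes were called. The 7 members called without the block were all called with it, and 12 others were added. DESeq2 called 9 members lower and 2 higher, against 3.84% and 2.09% of 22686 genes with an adjusted p; the members beyond the 7 were WNT3, LRP6, FZD9 and DKK3. Without both libraries numbered 1, edgeR called 11 lower and 5 higher, again with all 7 among them. Over all genes that fit called 1739 lower and 1536 higher, where the unblocked fit of all libraries called 571 and 234. Every PARP3-/- library lay under every WT library for 12 tested members and over it for 4, where 12.0% and 10.8% of all tested genes did so.

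**Figure D1:**
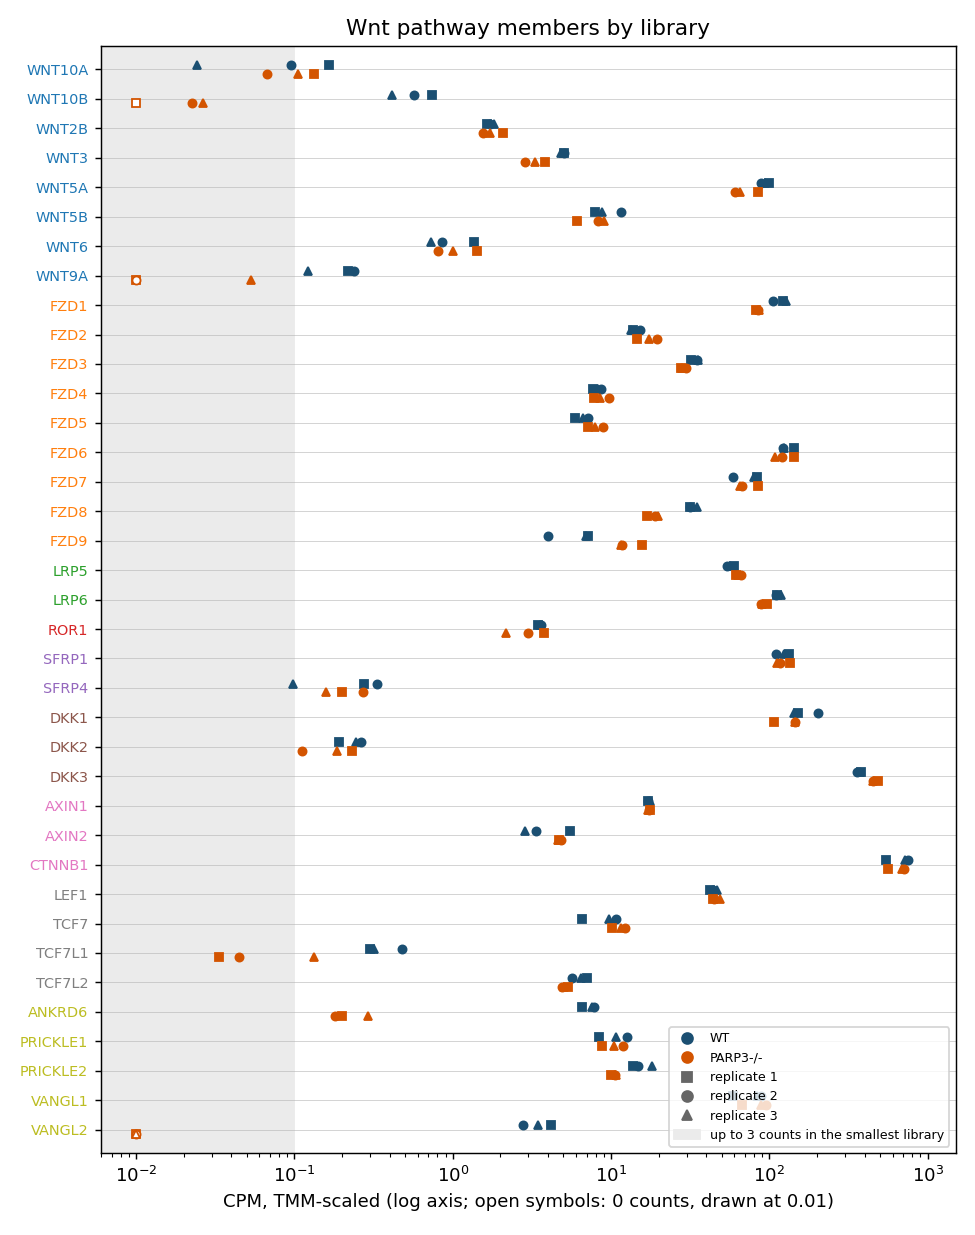
Level of each member with more than 3 counts in at least 1 library, as TMM-scaled CPM on a log axis, with 1 symbol per library (blue WT, orange PARP3-/-, symbol shape for the replicate number) and gene names coloured by role. ANKRD6, VANGL2, WNT10B and TCF7L1 show wide gaps between the genotypes, while CTNNB1, SFRP1, FZD6 and LEF1 overlap.

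Of the 5 planar polarity members, VANGL2, ANKRD6 and PRICKLE2 fell, while VANGL1 and PRICKLE1 were not called. VANGL2, a 4-pass membrane protein of the planar polarity core (ENSG00000162738, chr1:160400586-160428678, hg38), had 153, 117 and 142 counts in WT and 0, 0 and 0 in PARP3-/- cells. All 3 PARP3-/- libraries were without a count. Against a floor of 3 counts per library, VANGL2 was at least 42.4-fold lower in PARP3-/- cells (edgeR adjusted p = 0.00152). Its paralogue VANGL1 was read at 58.8, 88.7 and 83 CPM in WT and 67.7, 95.9 and 88.9 CPM in PARP3-/- cells. The VANGL1 groups overlapped and its log2 fold change was 0.13 (SE 0.19, adjusted p = 0.84), with a 95% interval of -0.31 to 0.58. On the scale of CPM per kilobase of exon, VANGL1 made up 68.9% of the summed level of the 5 planar polarity members in WT and 82.3% in PARP3-/- cells.

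ANKRD6, also called Diversin, is an ankyrin repeat protein that links Dishevelled to the planar polarity branch and casein kinase to the destruction complex (ENSG00000135299, chr6:89433170-89633834). It had 238, 330 and 311 counts in WT and 6, 8 and 11 in PARP3-/- cells, so that the highest PARP3-/- library held 11 counts where the lowest WT library held 238. The level was 7.32 ± 0.71 CPM (SD, n = 3) in WT and 0.223 ± 0.0595 CPM in PARP3-/- cells, a fitted 32.4-fold difference with a log2 fold change of -5.02 (SE 0.22, adjusted p = 0.0001). LYRM2, which overlaps ANKRD6 on the opposite strand, had 3481, 3966 and 3917 counts in WT and 2542, 3549 and 2987 in PARP3-/- cells. Whether the authors counted by strand is not given in the sources used here, and the few ANKRD6 counts left in PARP3-/- cells cannot be told apart from reads of LYRM2.

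PRICKLE2, a cytoplasmic partner of the VANGL proteins (ENSG00000163637, chr3:64092242-64445476), was measured at 13.8, 14.9 and 18.1 CPM in WT and 10, 10.7 and 10.7 CPM in PARP3-/- cells. All PARP3-/- libraries lay under all WT libraries, with a log2 fold change of -0.57 (SE 0.12, adjusted p = 0.0486). The adjusted p rose to 0.0518 with median-of-ratios size factors and to 0.0550 among genes with a mean count of at least 50, and it passed in only 1 of 6 fits that left out a library, the one without WT replicate 1 (highest adjusted p = 0.183). Its paralogue PRICKLE1 had 8.45, 12.6 and 10.7 CPM in WT and 8.75, 12 and 10.4 CPM in PARP3-/- cells, with overlapping groups and a log2 fold change of -0.031 (SE 0.18, adjusted p = 0.974). Genes within 5 Mb of PRICKLE2 had a median log2 fold change of -0.17. The part of that shift in the PRICKLE2 result was not tested.

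Genes outside the members but of the same branch were read from a list of 15 further planar polarity and noncanonical components, 14 of them tested. CELSR1, the cadherin that bridges neighbouring cells in planar polarity, was the 1 gene of that list called, at 18.8, 14.3 and 14.3 CPM in WT and 2.39, 2.42 and 1.64 CPM in PARP3-/- cells. It fell 7.33-fold, with a log2 fold change of -2.87 (SE 0.20, adjusted p = 0.00059). CELSR2 (45.6, 41.1 and 43 against 53.7, 46.5 and 43.9 CPM) and CELSR3 (23.9, 18.1 and 19.2 against 29.9, 25.6 and 25.6 CPM) had adjusted p-values of 0.539 and 0.166, and with the replicate block CELSR3 was called higher (adjusted p = 0.00081). DAAM2, a formin downstream of Dishevelled, had 76.2, 45.1 and 61.5 CPM in WT and 44.2, 28 and 27.3 CPM in PARP3-/- cells and an adjusted p of 0.121 (with the block 2.7e-05, DESeq2 0.016). PTK7, a Wnt co-receptor that also acts in planar polarity and stood on the list of other antagonists and co-receptors, had 74.8, 76.1 and 83.4 CPM in WT and 34.3, 34.5 and 34.7 CPM in PARP3-/- cells. Its PARP3-/- libraries were all under its WT libraries, and its log2 fold change was -1.18 (SE 0.074, adjusted p = 0.00039). SCRIB (119.6, 125 and 126 against 108, 120.4 and 124 CPM) and PRICKLE3 (3.28, 3.48 and 3.19 against 3.38, 3.45 and 3.04 CPM) overlapped between genotypes.

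**Figure D2:**
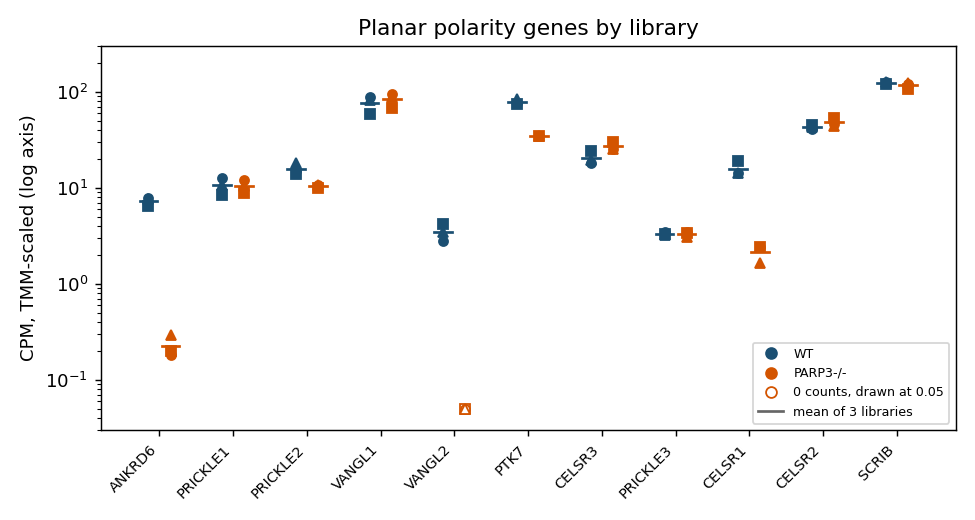
Level of the 5 planar polarity members (left), PTK7, and 5 genes of the list of other planar polarity components, as TMM-scaled CPM on a log axis, with 1 symbol per library and a bar at the mean of 3 libraries. VANGL2 had 0 counts in all PARP3-/- libraries, and ANKRD6, CELSR1, PTK7 and PRICKLE2 were lower in all of them. CELSR3 was higher in all of them, while VANGL1, PRICKLE1, CELSR2, SCRIB and PRICKLE3 overlapped.

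The promoter sequences of the members were looked at next, because ANKRD6 and VANGL2 were nearly or wholly without counts. RefSeq promoter windows (GRCh38.p14) were found for 34 of the 45 members and gave 45 windows of 250 bases before a start site. AXIN2, DKK2, DKK3, FZD2, FZD3, FZD6, FZD7, LRP6, SFRP1, WNT10B and WNT11 had no entry. The median member window held 23 CpG dinucleotides and 69.2% G and C, beside 11 CpG and 58.0% over all 35116 windows. VANGL2, ANKRD6 and FZD8 fell and FZD9 was the member with the largest positive log2 fold change, and their first windows held 25, 22, 24 and 23 CpG. The windows of FZD1 and TCF7L1, also called lower, held 19 and 24 CpG. The other 3 windows of ANKRD6 held 27, 6 and 1 CpG, and the 2 windows of PRICKLE2 held 2 and 4. Both PRICKLE2 windows lay inside the gene span given above, and neither covered its 5′ end. The first window of VANGL2, ANKRD6, FZD8, FZD9 and PRICKLE2 is printed 5′ to 3′ on the gene's strand with each CpG in capitals.
VANGL2 (chr1:160400314-160400563, forward strand): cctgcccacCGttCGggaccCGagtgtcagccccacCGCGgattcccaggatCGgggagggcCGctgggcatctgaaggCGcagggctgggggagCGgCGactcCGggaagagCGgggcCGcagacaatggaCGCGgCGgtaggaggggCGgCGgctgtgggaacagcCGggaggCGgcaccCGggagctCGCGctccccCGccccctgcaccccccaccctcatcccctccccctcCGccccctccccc
ANKRD6 (first of its windows, chr6:89432902-89433151, forward strand): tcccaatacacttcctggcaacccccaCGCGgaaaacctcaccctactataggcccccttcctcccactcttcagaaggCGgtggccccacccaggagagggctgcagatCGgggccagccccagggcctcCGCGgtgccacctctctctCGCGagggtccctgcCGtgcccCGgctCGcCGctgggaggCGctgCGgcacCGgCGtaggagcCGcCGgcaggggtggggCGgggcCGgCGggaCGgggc
FZD8 (chr10:35642297-35642546, reverse strand): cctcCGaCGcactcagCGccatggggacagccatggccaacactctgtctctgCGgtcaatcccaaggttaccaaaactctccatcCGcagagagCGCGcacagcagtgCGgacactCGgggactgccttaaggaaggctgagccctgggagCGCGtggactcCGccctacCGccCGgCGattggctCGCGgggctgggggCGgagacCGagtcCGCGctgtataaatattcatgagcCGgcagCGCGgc
FZD9 (chr7:73433528-73433777, forward strand): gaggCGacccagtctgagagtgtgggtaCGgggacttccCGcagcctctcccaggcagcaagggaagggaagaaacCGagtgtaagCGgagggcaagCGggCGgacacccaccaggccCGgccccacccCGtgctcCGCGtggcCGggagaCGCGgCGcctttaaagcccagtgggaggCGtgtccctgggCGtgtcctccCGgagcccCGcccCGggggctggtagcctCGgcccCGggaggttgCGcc
PRICKLE2 (first of its windows, chr3:64268174-64268423, reverse strand): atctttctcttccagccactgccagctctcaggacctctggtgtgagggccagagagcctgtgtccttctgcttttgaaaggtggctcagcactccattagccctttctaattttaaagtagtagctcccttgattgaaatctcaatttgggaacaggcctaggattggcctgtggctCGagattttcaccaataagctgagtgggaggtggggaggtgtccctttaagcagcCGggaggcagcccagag

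The core letters bound by TCF/LEF factors, CTTTGA on either strand (TCAAAG on the other), were found in 1 of the 45 member windows (2.22%) and in 11.2% of all windows. The member was DKK1, a known feedback antagonist of the canonical branch, whose window (chr10:52314031-52314280, forward strand) held 1 match on each strand, shown in capitals. A match of letters is a description of the sequence and not a binding site, and no match says only that these letters are not in the window.
DKK1: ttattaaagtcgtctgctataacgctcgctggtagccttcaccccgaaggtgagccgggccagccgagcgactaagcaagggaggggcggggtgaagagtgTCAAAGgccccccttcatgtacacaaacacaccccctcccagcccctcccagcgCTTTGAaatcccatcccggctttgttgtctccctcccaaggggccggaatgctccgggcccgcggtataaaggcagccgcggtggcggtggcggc

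Of 14 ligand genes, 6 were tested, and WNT10B was the 1 called. WNT5A, the archetypal noncanonical ligand, was the most abundant per kilobase of exon at 13.1 ± 0.776 CPM per kb (SD, n = 3) in WT and 9.83 ± 1.77 in PARP3-/- cells, which was 75.9% and 75.0% of the summed ligand level. The summed level was 16.9 to 18.1 CPM per kb in WT and 11.6 to 15.01 in PARP3-/- libraries. These sums did not overlap.

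WNT10B, a canonical ligand (ENSG00000169884, chr12:48965340-48971763), had 27, 24 and 17 counts in WT and 0, 1 and 1 in PARP3-/- cells. The ratio of summed, depth-scaled counts was 32.0-fold, with a 95% counting interval of 8.52 to 270, and the edgeR adjusted p was 0.00457. This was a low gene in both genotypes: at 0.221 ± 0.0624 CPM per kb in WT it stood far under WNT5A. The 134 tested genes within 5 Mb of WNT10B on either side had a median log2 fold change of -0.25. The part of that shift in the result was not tested.

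WNT5A was read at 99.6, 88.5 and 93.8 CPM in WT and 84.6, 60.7 and 65.6 CPM in PARP3-/- cells. All PARP3-/- libraries were lower, the nearest being replicate 1, and the log2 fold change of -0.42 (SE 0.13, adjusted p = 0.165) did not pass. It passed with the replicate block (log2 fold change -0.43, edgeR adjusted p = 0.00064) but not in DESeq2 (adjusted p = 0.107). Of the 6 edgeR fits that left out a library, WNT5A passed only in the one without PARP3-/- replicate 1 (adjusted p = 0.0269, highest of the 6 0.473). Genes within 5 Mb of WNT5A had a median log2 fold change of -0.24. WNT3, a canonical ligand, was measured at 5.03, 5.05 and 4.8 CPM in WT and 3.81, 2.87 and 3.31 CPM in PARP3-/- cells, again with no overlap, and its log2 fold change was -0.58 (SE 0.15, adjusted p = 0.0869). WNT3 passed with the block (0.00575) and in DESeq2 (0.0233).

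The other tested ligands overlapped between genotypes. WNT5B, a noncanonical ligand, had a mean of 9.4 ± 1.85 CPM in WT and 7.79 ± 1.55 in PARP3-/- cells, and WNT2B and WNT6 lay under 2.1 CPM in every library. WNT9A, which was not tested in edgeR, had 8, 10 and 5 counts in WT and 0, 0 and 2 in PARP3-/- cells. The ratio was 10.8-fold, with a 95% counting interval of 2.67 to 94.7, and DESeq2 did not call WNT9A (adjusted p = 0.121). WNT10A had no more than 6 counts in any library. WNT2, WNT4, WNT7A, WNT8B, WNT11 and WNT16 never exceeded 3 counts, as was the case for the receptor ROR2 and the antagonist SFRP2, so no difference in these 8 genes was detectable at this depth.

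All 9 Frizzled members were tested, and 2 fell. FZD8 (ENSG00000177283, chr10:35638249-35642278), a receptor encoded by 1 exon, was measured at 31.4, 31.7 and 34.9 CPM in WT and 16.8, 18.8 and 19.7 CPM in PARP3-/- cells. Every PARP3-/- library was under 20 CPM and every WT library over 31 CPM, a 1.77-fold difference with a log2 fold change of -0.82 (SE 0.092, adjusted p = 0.00379). The call held in all 6 fits that left out a library, with log2 fold changes of -0.87 to -0.76. Genes within 5 Mb of FZD8 had a median log2 fold change of 0.014.

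FZD1 (ENSG00000157240, chr7:91264364-91271326) was read at 121, 105 and 127 CPM in WT and 82.4, 84.2 and 85.8 CPM in PARP3-/- cells, with no overlap. It fell 1.4-fold with a log2 fold change of -0.49 (SE 0.09, adjusted p = 0.03), while genes within 5 Mb of it had a median of 0.19. Of the 6 fits that left out a library, only the one without WT replicate 2 kept FZD1 under the threshold (highest adjusted p = 0.141).

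FZD9 (ENSG00000188763, chr7:73433783-73436120) went the other way, at 7.14, 4 and 6.97 CPM in WT and 15.7, 11.7 and 11.5 CPM in PARP3-/- cells. The lowest PARP3-/- library was above the highest WT library. Its log2 fold change was 1.10 (SE 0.24, adjusted p = 0.0553), where genes within 5 Mb of FZD9 had a median of 0.13. FZD9 thus missed the threshold in the unblocked fit; with the replicate block its adjusted p was 0.00014, in DESeq2 it was 0.00059, and with no filter on low counts edgeR gave 0.0079. On the per-kilobase scale FZD9 was under FZD8 in WT (2.58 ± 0.754 against 8.07 ± 0.48 CPM per kb), whereas their PARP3-/- levels (5.53 ± 0.994 against 4.56 ± 0.359) differed by less than the SD of FZD9.

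The most abundant receptor per kilobase was FZD6, at 31.9 ± 2.82 CPM per kb in WT, which was 38.0% of the summed Frizzled level there and 39.4% in PARP3-/- cells. FZD6 had 143, 123 and 124 CPM in WT and 142, 120.3 and 109 CPM in PARP3-/- cells. FZD7 had 83.2, 58.6 and 80.4 CPM in WT and 84.5, 66.9 and 65.7 CPM in PARP3-/- cells. Both genes overlapped between genotypes, with 95% intervals of the log2 fold change of -0.35 to 0.22 and -0.42 to 0.35. FZD3 had 32, 34.7 and 35.4 CPM in WT and 27.5, 29.6 and 28.1 CPM in PARP3-/- cells, with all PARP3-/- libraries lower, an adjusted p of 0.13 and 0.00677 with the block.

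FZD2 (13.8, 15.1 and 13.4 against 14.6, 19.5 and 17.4 CPM) and FZD5 (5.94, 7.12 and 6.65 against 7.2, 8.86 and 7.91 CPM) had positive log2 fold changes of 0.29 and 0.28, which passed with the block (0.025 and 0.0434) but not in the unblocked fit of all libraries or in DESeq2. Without both libraries numbered 1, FZD2 passed in the unblocked fit as well (edgeR adjusted p = 0.0204). The FZD2 groups overlapped and those of FZD5 did not. FZD4 passed in none of the 3 analyses (log2 fold change 0.07, 95% interval -0.22 to 0.36). The summed Frizzled level was 76.5 to 89.6 CPM per kb in WT and 72.4 to 84.2 in PARP3-/- libraries, with overlap. FZD4, WNT2B, WNT5B, SFRP4, CTNNB1, TCF7 and PRICKLE1 each overlap a protein-coding gene on the opposite strand, and without strand the reads of such genes cannot be told apart.

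**Figure D3:**
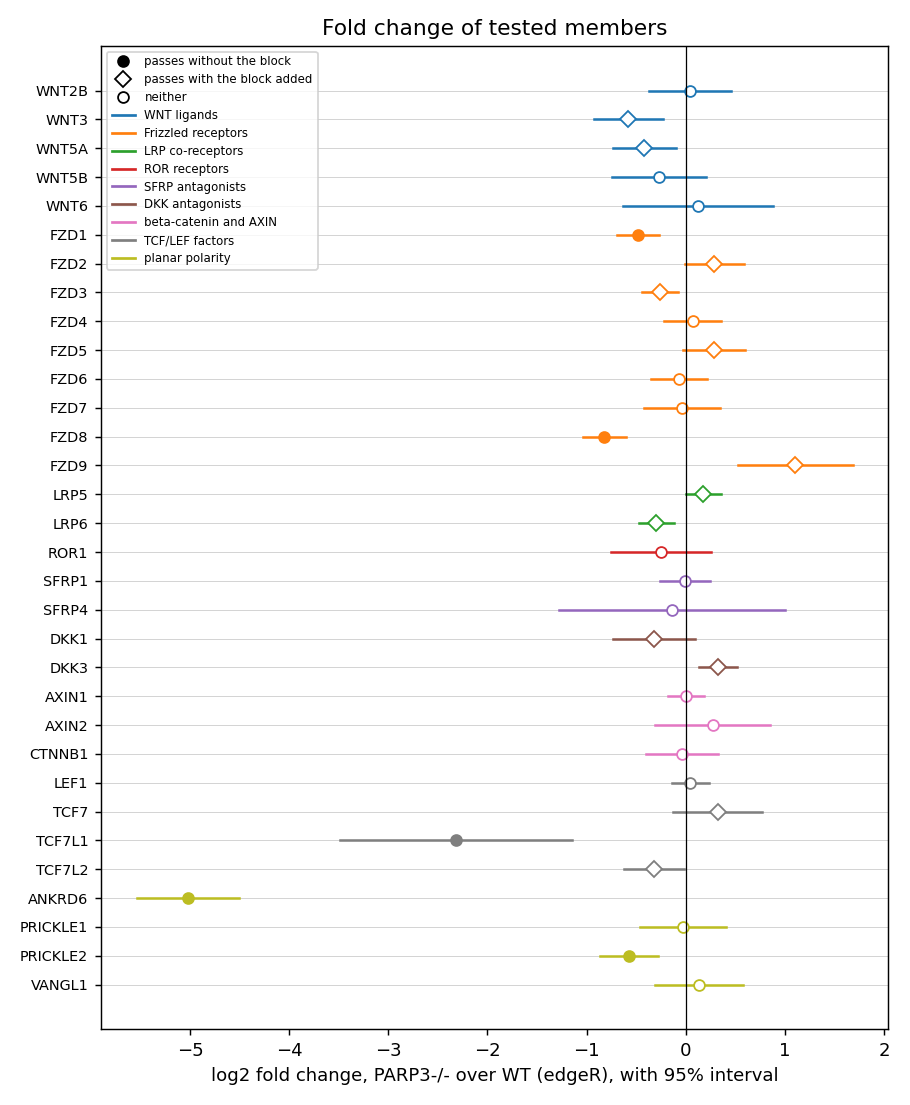
edgeR log2 fold change of PARP3-/- over WT for the tested members with more than 3 counts in a PARP3-/- library, with 95% intervals, coloured by role. VANGL2 and WNT10B are left out because their fitted values depend on the prior count; filled circles pass an adjusted p of 0.05 in the unblocked edgeR fit, and diamonds pass in edgeR once the replicate block is added.

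The co-receptors LRP5 and LRP6, which pair with Frizzled proteins in the canonical branch, differed in sign. LRP6 was read at 112, 109.9 and 118 CPM in WT and 96.9, 89.2 and 90.3 CPM in PARP3-/- cells and LRP5 at 59.6, 54.1 and 56.3 CPM in WT and 61.8, 66.5 and 63.4 CPM in PARP3-/- cells. LRP6 was lower and LRP5 higher in all PARP3-/- libraries, but neither passed in the unblocked edgeR fit of all libraries: LRP6 had a log2 fold change of -0.30 (SE 0.073, adjusted p = 0.079) and LRP5 one of 0.17 (SE 0.074, adjusted p = 0.309). With the block the adjusted p-values were 0.0018 and 0.046, and DESeq2 called LRP6 (0.026) and not LRP5 (0.378). Without both libraries numbered 1, LRP5 passed in the unblocked fit (edgeR adjusted p = 0.0179). Genes within 5 Mb of LRP6 had a median log2 fold change of -0.18. ROR1, a tyrosine kinase-like receptor of WNT5A, overlapped between genotypes (3.54 ± 0.087 CPM in WT and 2.99 ± 0.806 CPM in PARP3-/- cells, n = 3).

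Of the secreted antagonists, none was called by the unblocked edgeR fit; DESeq2 called DKK3. SFRP1 gave 99.7% of the summed SFRP level per kilobase in WT and 99.8% in PARP3-/- cells, and its values overlapped at 134, 109.8 and 124 CPM in WT and 134, 118 and 112 CPM in PARP3-/- cells. The 95% interval of its log2 fold change was -0.27 to 0.24. SFRP4 had 4 to 14 counts in WT and 6 to 12 in PARP3-/- libraries.

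DKK1 was the most abundant of all 45 members per kilobase of exon, at 74.9 ± 14.4 CPM per kb in WT and 59.8 ± 9.96 in PARP3-/- cells (SD, n = 3). With the deposited median transcript length in place of the exon length it ranked 3 of 45, under CTNNB1 and DKK3. Its library values of 153, 203 and 144 CPM in WT and 107, 146 and 146 CPM in PARP3-/- cells overlapped, and the log2 fold change was -0.32 (SE 0.17, adjusted p = 0.444). With the block the DKK1 adjusted p was 0.0231. In the pairs numbered 1, 2 and 3 its log2 ratios were -0.51, -0.48 and 0.022, so the third pair did not share the direction of the other two. DKK3, a divergent member of the family, had 381, 359 and 375 CPM in WT and 488, 450.2 and 454 CPM in PARP3-/- cells, with all PARP3-/- libraries higher. Its log2 fold change of 0.32 (SE 0.082, adjusted p = 0.0876) passed with the block (0.00127) and in DESeq2 (0.00244). On the scale of CPM per kilobase of exon, DKK1 made up 70.6% of the summed DKK level in WT and 60.6% in PARP3-/- cells. That order depended on the length used: per kilobase of median transcript length, DKK3 was above DKK1 in WT (522 against 305 CPM per kb). DKK2 was not tested in edgeR and had 7, 11 and 10 counts in WT and 7, 5 and 7 in PARP3-/- cells.

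**Figure D4:**
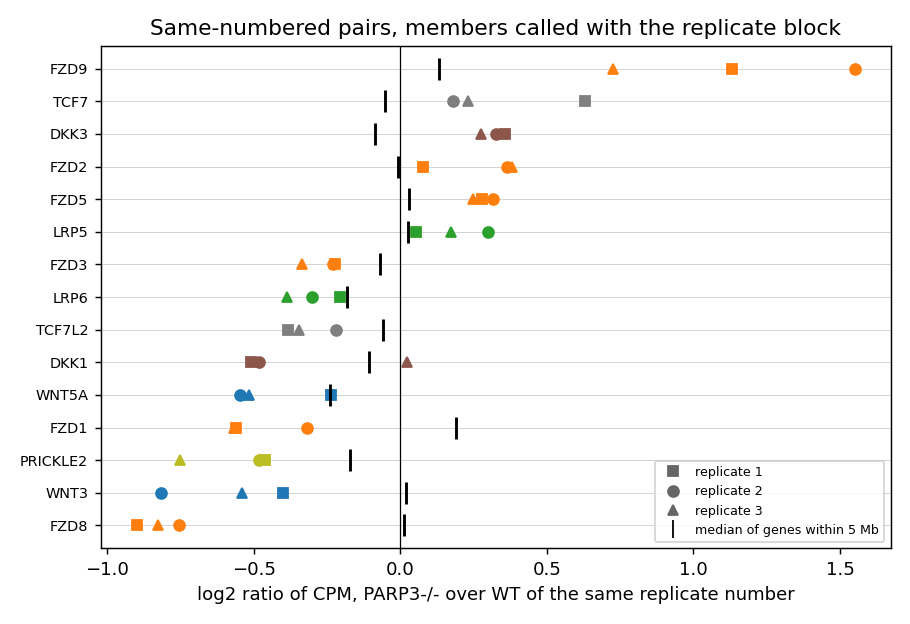
log2 ratio of CPM between same-numbered PARP3-/- and WT libraries for the 15 members called with the replicate block that had counts well above the floor in both genotypes, with 1 symbol per pair, coloured by role, and a black tick at the median log2 fold change of tested genes within 5 Mb. All 3 pairs share a direction in each gene except DKK1.

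CTNNB1 and AXIN1, at the core of the canonical branch, differed between genotypes by less than the spread between libraries. CTNNB1, which encodes beta-catenin, was read at 544, 754 and 718 CPM in WT and 566, 708 and 690.4 CPM in PARP3-/- cells, with its lowest library in each genotype being replicate 1. Its log2 fold change was -0.038 (SE 0.15, adjusted p = 0.96), with a 95% interval of -0.40 to 0.33. AXIN1, the scaffold of the destruction complex, spanned 17.1 to 17.7 CPM over all 6 libraries. The 95% interval of the AXIN1 log2 fold change was -0.18 to 0.18.

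AXIN2, a feedback target of beta-catenin, was measured at 5.47, 3.38 and 2.85 CPM in WT and 4.68, 4.8 and 4.6 CPM in PARP3-/- cells. WT replicate 1 was above all PARP3-/- libraries and the other 2 WT libraries were below them. The log2 fold change was 0.27 (SE 0.24, adjusted p = 0.707) with all libraries and 0.59 (adjusted p = 0.0187) without both libraries numbered 1.

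LEF1 was the most abundant TCF/LEF factor, with 81.2% of their summed level per kilobase in WT and 81.9% in PARP3-/- cells, and it overlapped at 42.4, 44.2 and 46.9 CPM in WT and 43.9, 44.8 and 49.1 CPM in PARP3-/- cells. TCF7L1, often a repressor of Wnt targets (ENSG00000152284, chr2:85133410-85310388), had 11, 20 and 13 counts in WT and 1, 2 and 5 in PARP3-/- cells. The groups did not overlap and the log2 fold change was -2.32 (SE 0.49, adjusted p = 0.0486), but the call was lost in each of the 6 fits that left out a library (highest adjusted p = 0.223). A noncoding gene inside it on the same strand, TCF7L1-IT1, had no more than 3 counts. TCF7L2 (7, 5.67 and 6.46 against 5.37, 4.87 and 5.08 CPM) and TCF7 (6.59, 10.8 and 9.77 against 10.2, 12.2 and 11.5 CPM) had log2 fold changes of -0.32 and 0.32. Both passed with the block (edgeR adjusted p = 0.0432 and 0.0332) and not in the unblocked fit or DESeq2.

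The remaining components of the pathway were read from 7 lists holding 86 genes, 74 of them tested. Of these, 3 fell (CELSR1, PTK7 and ID2) and 2 rose (NOTUM and GPC3), and with the block 17 fell and 14 rose. Over all tested genes, 3.33% were called lower and 1.36% higher, and with the block 12.5% and 11.8%. In the unblocked edgeR fit, 2788 of all 17144 tested genes had an unadjusted p under 0.05. The median log2 fold change of the 74 list genes was 0.025. None of 18 cytoplasmic components, such as the Dishevelled, GSK3 and casein kinase genes, was called by the unblocked edgeR fit; 3 had an unadjusted p under 0.05, and DESeq2 called none. With the replicate block, AMER1 (0.0368) and FBXW11 (0.0463) were called lower and CSNK1G1 (0.00549), CSNK1D (0.0103) and APC2 (0.0158) higher. The smallest unblocked adjusted p-values were those of CSNK1G1 (0.223) and CSNK1D (0.243). None of 13 nuclear cofactors was called by the unblocked edgeR fit; 2 had an unadjusted p under 0.05, and DESeq2 called 1. That gene was the corepressor TLE2, at 7.36, 4.69 and 4.7 CPM in WT and 3.12, 1.41 and 1.24 CPM in PARP3-/- cells (edgeR adjusted p = 0.0754, DESeq2 0.00123), followed by PYGO2 (0.136). With the block TLE2 was called lower (3.1e-05) and PYGO2 higher (0.00638).

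NOTUM, a secreted enzyme that strips the lipid from Wnt ligands and is itself a Wnt target, was measured at 3.8, 3.55 and 4 CPM in WT and 6.83, 6.66 and 7.12 CPM in PARP3-/- cells and rose 1.82-fold. Its log2 fold change was 0.86 (SE 0.12, adjusted p = 0.00873), with no overlap. Also on the list of 5 secretion and processing genes, TRABD2B had a log2 fold change of -0.91 (SE 0.27, adjusted p = 0.137), and was called lower with the block (0.0019) and in DESeq2 (0.0474). GPC3, a glypican that binds Wnt ligands, was measured at 8.35, 5.45 and 5.26 CPM in WT and 20, 14.6 and 13.8 CPM in PARP3-/- cells, and rose with a log2 fold change of 1.34 (SE 0.23, adjusted p = 0.0211). ID2, on the list of 19 canonical target genes, was measured at 4.51, 5.98 and 5.75 CPM in WT and 3.15, 2.69 and 2.7 CPM in PARP3-/- cells, and fell with a log2 fold change of -0.93 (SE 0.16, adjusted p = 0.023). It is known as a target of BMP signals as well. With the block, 5 of the 15 tested target genes were called lower and 5 higher, and 12.5% and 11.8% of all tested genes. The higher genes were NOTUM, CCND1, SP5, BMP4 and FOSL1, and the lower ones ID2, RNF43, TNFRSF19, CD44 and JUN. Of the 3 tested genes of R-spondin signalling and receptor turnover, RNF43 and LGR4 had the smallest adjusted p-values (0.382 and 0.454), DESeq2 called none, and none had an unadjusted p under 0.05. With the block both were called lower (0.00565 and 0.0433). APCDD1, a membrane antagonist too low for the count filter of edgeR, had 8, 7 and 8 counts in WT and 0, 0 and 0 in PARP3-/- cells.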

How the data were processed

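Total RNA was made into stranded libraries after ribosomal depletion (the labels give the molecule as polyA RNA) and read as single 50-base reads. Per the submitters' notes, the authors used cutadapt 1.10, Bowtie2 2.2.8, STAR 2.5.3a (hg38) and HTSeq 0.6.1p1. The deposited counts per gene were used as they stood; 12 per-sample columns of normalized values, and columns of the authors' own fold changes and p-values, were not used. Counts were tested with edgeR 4.0.16 (quasi-likelihood, genotype only, TMM, filterByExpr with minimum count 10, Benjamini-Hochberg over 17144 genes) in R 4.3.3, called at an adjusted p under 0.05. The fits were tested on simulated data. CPM used TMM-scaled totals of all 33841 genes, and levels per kilobase used GENCODE exon lengths. A count of 3 was 0.0673 to 0.0995 CPM; counting intervals (95%, exact binomial) and floors cover counting error only. Deviations from group means correlated at 0.676, 0.517 and 0.242 between same-numbered libraries (different numbers -0.628 to 0.410). WT replicate 3 correlated at 0.264 with PARP3-/- replicate 2, and WT replicate 2 at 0.410 with PARP3-/- replicate 3. The numbers thus set apart the libraries numbered 1 but did not pair replicates 2 and 3. A fit with the replicate block was added. DESeq2 1.42.0, other size factors, filters and fits leaving out 1 library were alternatives; leaving out both libraries numbered 1 was added after seeing the data. Values in every library were given for members called in any of the 3 analyses, the 15 of highest mean CPM, untested members reaching 10 counts, and WNT10B. Members and lists were chosen with earlier results of these data known.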

Additional observations from a re-analysis of the deposited data

How the results depend on the processing

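With the replicate block (libraries paired by number), the calls over all genes went from 571 lower and 234 higher to 2143 and 2023, those of the members from 7 and 0 to 13 and 6, and those of the other Wnt lists from 3 and 2 to 17 and 14; the cause was not tested. DESeq2 called 871 and 475 genes, 2 members higher, and 7 genes of the other lists lower. A mean count of at least 50 left 331 genes and 4 members lower, since WNT10B and TCF7L1 were then not tested and PRICKLE2 missed the threshold. A log2 limit of 1 left 79 genes higher, 4 members lower and 1 list gene higher. With no filter, 1 member (FZD9) was called higher and 6 list genes lower. Without both libraries numbered 1, 1739 and 1536 genes, 11 and 5 members, and 11 and 12 list genes were called; with the replicate block as well, 2649 and 2501, 13 and 6, and 21 and 16. With each library left out in turn, edgeR called 281 to 606 genes lower and 49 to 259 higher, 4 to 5 members lower, and 2 to 5 list genes lower and 0 to 3 higher.

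ANKRD6, VANGL2, WNT10B and FZD8 kept their calls in all 6 fits that left out 1 library (log2 fold changes -5.26 to -4.86, -10.19 to -9.94, -5.12 to -4.39 and -0.87 to -0.76); FZD1, PRICKLE2 and TCF7L1 lost theirs in 5, 5 and 6. Signs turned only in members near 0: in these fits WNT2B ranged from -0.082 to 0.14, WNT6 -0.12 to 0.42, FZD4 -0.018 to 0.14, FZD6 -0.18 to 0.016, FZD7 -0.18 to 0.055, SFRP1 -0.089 to 0.055, SFRP4 -0.52 to 0.024, AXIN1 -0.0105 to 0.017, CTNNB1 -0.17 to 0.058, LEF1 -0.0060 to 0.084, PRICKLE1 -0.17 to 0.11 and VANGL1 -0.0299 to 0.27. Without both libraries numbered 1, WNT2B was at -0.123 (-0.120 with the replicate block), SFRP4 at 0.0067 and AXIN1 at -0.0232 (-0.0226); AXIN1 was at -0.0034 with no filter and -0.0051 at a mean count of at least 50. The 3 libraries per genotype and the low counts of WNT9A, WNT10A, DKK2 and SFRP4 limit what could be called. Of the 15 members of highest level per kilobase, 13 were the same with the deposited median transcript length.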
